A study of Mus musculus with 18 samples.

Results

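The ribosome is built from ribosomal RNA and a set of proteins that sit in a small subunit, which reads the mRNA, and a large subunit, which joins the amino acids. The genes of the proteins in the cytosolic ribosome carry the symbols Rps (small subunit) and Rpl (large subunit), and their mRNAs are among the most abundant of any cell. Described here are the 82 genes, of 23063 in the deposited tables, whose symbol is Rpl or Rps followed directly by a digit. The rule left out 10 genes with symbols starting in Rps6k, which encode kinases, and 5 with -ps in the symbol, which marks a pseudogene. Of the 82 members, 73 encode conventional ribosomal proteins, 30 of the small and 43 of the large subunit. The other 9 are paralogues or genes that share only the name: Rpl10l, Rpl22l1, Rpl36al, Rpl39l, Rpl3l, Rpl7l1, Rps19bp1, Rps27l and Rps4y2. Another 7 genes of the cytosolic ribosome have other symbols, such as Rpsa, Rplp0 and Rplp2, and were kept apart.

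RNA was sequenced from 3 epithelial populations of the mouse thymus, separated by flow cytometry from mice of 6 to 8 weeks: medullary cells of a hi gate (mTEChi) and of a lo gate (mTEClo), and cortical cells (cTEC). Each population came from Aire knockout (KO) and from wild-type (WT) mice, with 3 libraries in each of the 6 groups and 18 in all. Every sample, WT included, carries the name of the Aire mutant line B6.129S2-Airetm1.1Doi/J as its strain. The surface protein behind the lo and hi gates is not named, and nothing says that replicates are separate mice, so p-values measure the spread between these libraries only.

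Transcription of ribosomal protein genes is coordinated in all cells, since the subunits need each protein in equal number, and it is tied to growth. In mammals these mRNAs begin with a run of pyrimidines at the transcription start, the terminal oligopyrimidine (TOP) motif, through which the mTOR pathway controls their translation. Some members have further roles: Rpl22 is needed for the development of alpha-beta T cells in mice, Rpl5 and Rpl11 bind and inhibit Mdm2, and Rps6 is the substrate of the S6 kinases. In humans, variants in genes such as RPS19, RPS24, RPS26 and RPL15 cause Diamond-Blackfan anaemia. In the thymus, Aire acts in mTEChi, where it drives transcription of tissue-restricted genes that are presented to developing T cells.

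The start regions of 8 members on which the comparisons below turn are printed to show how pyrimidine runs at the annotated start vary among them. The starts used were not measured here, so whether a gene has or lacks a TOP motif was not tested. They were taken from RefSeq (build GRCm38.p6) and run 5′ to 3′ from 35 bases before to 25 bases after the annotated start. Capitals mark the longest unbroken run of at least 8 C or T that overlaps the stretch from 5 bases before to 10 bases after the start. The windows are Rpl15 at chr14:18270962-18271021 (minus strand), Rps24 at chr14:24490643-24490702 (plus strand), Rps27 at chr3:90213624-90213683 (minus strand), Rps6 at chr4:86857343-86857402 (minus strand), Rps26 at chr10:128626482-128626541 (minus strand), Rpl39 at chrX:37085198-37085257 (minus strand), Rps16 at chr7:28350654-28350713 (plus strand) and Rpl27 at chr11:101442210-101442269 (plus strand). The start used lies 39 bases outside the gene model of the deposited tables for Rps27 and 38 bases outside it for Rpl39. For the other 6 genes it lies within 3 bases of the model's end. Rpl15, the large subunit gene with the greatest change in the comparisons below, had the longest run printed, at 17 bases, and Rps16 and Rpl27 had none in this stretch.
Rpl15: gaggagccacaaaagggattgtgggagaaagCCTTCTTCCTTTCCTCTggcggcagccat
Rps24: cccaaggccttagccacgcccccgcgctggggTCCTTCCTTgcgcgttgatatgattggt
Rps27: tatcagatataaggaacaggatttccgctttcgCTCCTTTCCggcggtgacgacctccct
Rps6: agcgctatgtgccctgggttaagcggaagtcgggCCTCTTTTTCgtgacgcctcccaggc
Rps26: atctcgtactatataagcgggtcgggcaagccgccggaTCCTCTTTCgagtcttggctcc
Rpl39: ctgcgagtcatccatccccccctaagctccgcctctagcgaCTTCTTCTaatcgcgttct
Rps16: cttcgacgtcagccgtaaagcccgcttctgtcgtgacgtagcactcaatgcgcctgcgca
Rpl27: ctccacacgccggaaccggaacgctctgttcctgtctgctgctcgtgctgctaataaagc

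Over the family, 62 of 82 members matched a RefSeq promoter entry (250 bases before to 50 after the start), 54 of them conventional. A pyrimidine run at the start was present in 23 of these 54 (42.6%), in 2 of the 8 other members with an entry (25%) and in 13.4% of all 27025 genes with an entry. A gene with several entries was counted where any of them held the run or motif. Other short motifs were searched on both strands of the whole entry. GGGCGG (GC box) was held by 59.3% of the conventional members against 38.2% of all genes with an entry, and CCGGAAGT (core of the ETS family) by 18.5% against 4.31%. AAGATGGC (core of YY1) was held by 9.26% against 3.19%, CACGTG (E-box) by 11.1% against 8.09%, and TATAAA by 9.26% against 15.7%. The motifs differ in their letters but can lie over each other. The letters describe these windows, and no binding was measured here.

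As background to all values, libraries held 4.54 to 18.1 Gb of bases aligned to genes. Aire itself averaged 1073 ± 64.5 RPKM in KO mTEChi and 677 ± 17.9 RPKM in WT mTEChi, 23.6 ± 8.64 in KO mTEClo and 9.90 ± 2.62 in WT mTEClo, and 52.8 ± 37.3 in KO cTEC and 4.47 ± 2.69 in WT cTEC (SD, n = 3 each). These are values over the whole gene and do not check the disrupted part of it. The cortical protease subunit Psmb11 averaged 13.9 ± 5.77 RPKM in KO cTEC and 17.8 ± 5.72 in WT cTEC, against means of 1.84 RPKM or lower in the 4 medullary groups. The whole list of cTEC markers separated the groups less. Its mean sum was 1595 RPKM in KO cTEC and 1810 in WT cTEC, against 606 (WT mTEChi) to 933 (KO mTEChi) in the medullary groups. The mTEClo markers summed to means of 1556 RPKM in KO cTEC and 1506 in WT cTEC, against 2271 in KO mTEClo and 2931 in WT mTEClo. The purity of the sorted cells was not tested. The epithelial marker Epcam exceeded 132 RPKM in every library. KO cTEC replicates correlated least with each other (r of log2 values over tested genes 0.971 to 0.983, against at least 0.984 in the other groups). KO cTEC replicate 1 stood apart among them, with the lowest summed level of the members, 9833 RPKM, in its group. It also had more Aire (95.6 RPKM) than KO cTEC replicates 2 and 3 (35.9 and 27.0 RPKM). Its mTEChi markers summed to 224 RPKM, against 120 and 89.9 RPKM in replicates 2 and 3. Whether these values are linked was not tested.

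The conventional members spanned a wide range of levels. RPKM are read bases per kilobase of gene model, scaled to the library. Levels of different genes are set beside each other only within the limits of shared sequence and gene model given below. Over the 18 libraries, members with the highest means were Rpl4, a protein of the exit tunnel (620.5 RPKM), Rps15 (598), Rpl32 (583) and Rpl13a (512). The lowest were those of Rpl26 (1.59 RPKM), Rpl23a (2.24), Rpl11 (2.74), Rps23 (2.77) and Rps29 (3.30). The highest mean was 390 times the lowest, although the subunits hold these proteins in equal number. The lowest, Rpl26, has a gene model of 23 bases.

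The processed ribosomal protein pseudogenes of the mouse share long stretches with the mRNAs, and the level went with that overlap. Of the transcript's windows of 100 bases, 12 of the 73 conventional members shared under 10% with another annotated transcript, and these had a median level of 445.6 RPKM. The other 61 had a median of 59.4 RPKM, and 25 members shared at least 50% of their windows. Across the 73 genes, Spearman's rho of level against the shared percentage was -0.57, a description over genes that are not independent. Rpl21 shared windows with 40 other genes, the most of any member. The gene models of the tables are also short for some: that of Rpl26 covers 23 bases and that of Rpl30 150 bases, and 9 conventional members had a model under 50% of the annotated transcript. How reads with several matches were placed is not given in the sources used here. Levels of single members are therefore uncertain, and their part in the differences between groups was not tested, apart from the counts over the 12 little-shared members given with each comparison.

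**Figure D1:**
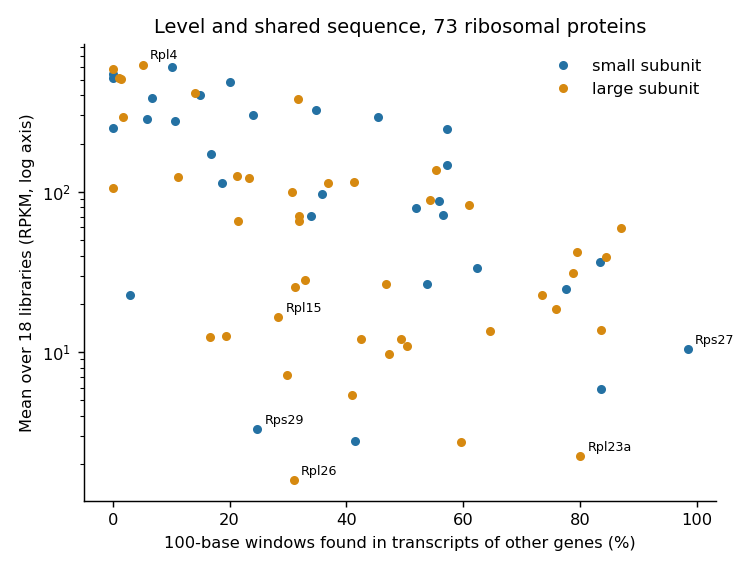
Mean RPKM over 18 libraries (log axis) of each of the 73 conventional members against the percentage of its transcript's 100-base windows that also occur in another annotated transcript. Members with under 10% shared have a median of 445.6 RPKM and the other 61 a median of 59.4 RPKM.

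The summed level of all 82 members was lowest in mTEChi. The sums were 9953, 11302 and 8691 RPKM in KO mTEChi and 10389, 9662 and 8634 RPKM in WT mTEChi. They were 11486, 11357 and 10617 RPKM in KO mTEClo and 12748, 13246 and 13568 RPKM in WT mTEClo. In cTEC they were 9833, 12194 and 13409 RPKM for KO and 12547, 11667 and 11915 RPKM for WT. WT mTEClo libraries all lay above those of KO mTEClo, WT mTEChi and WT cTEC, while KO and WT overlapped in mTEChi and in cTEC. As a share of all RPKM in the library, the members took 3.32% ± 0.286 in KO mTEChi and 3.15% ± 0.199 in WT mTEChi, 3.64% ± 0.115 in KO mTEClo and 4.18% ± 0.0692 in WT mTEClo, and 3.92% ± 0.465 in KO cTEC and 4.02% ± 0.0933 in WT cTEC (SD, n = 3 each). In bulk samples such as these, fewer cells of a type and less RNA per cell cannot be told apart.

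The mean sum of KO over that of WT was 1.04 in mTEChi, 0.846 in mTEClo and 0.981 in cTEC. The ratio of mTEChi to mTEClo was 0.895 in KO and 0.725 in WT, and that of mTEChi to cTEC was 0.845 in KO and 0.794 in WT. Both subunits took part: small subunit members summed to 4976 ± 432 RPKM in WT mTEChi and 6955 ± 247 in WT mTEClo, and large subunit members to 4265 ± 416 and 5872 ± 162 RPKM in the same groups.

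**Figure D2:**
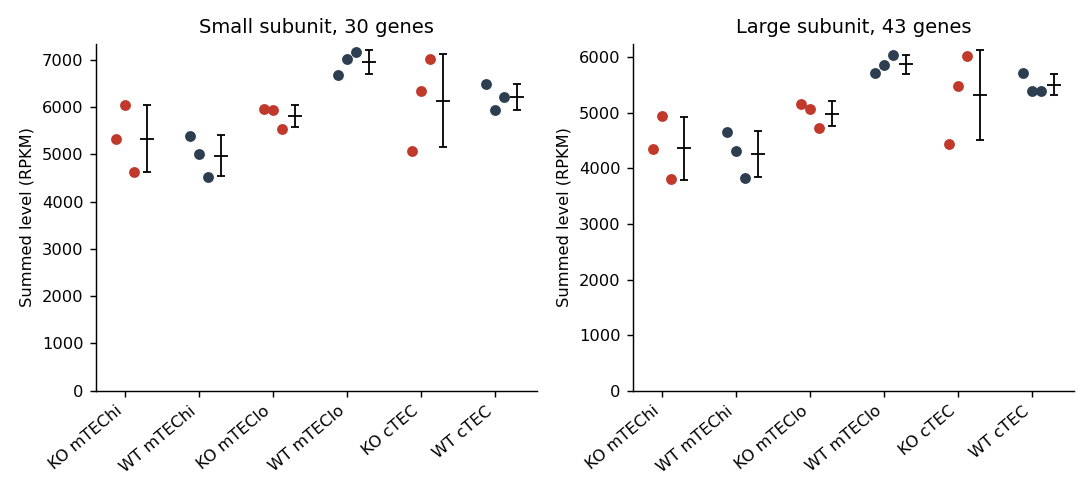
Summed RPKM of the 30 small subunit members and the 43 large subunit members in each of the 18 libraries (points), with the mean and SD of each group of 3 (bars). The small subunit panel has means of 4976 RPKM in WT mTEChi and 6955 RPKM in WT mTEClo, and the large subunit panel 4265 and 5872 RPKM in the same groups.

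Single genes were compared with limma on log2(RPKM + 0.1) over 19451 tested genes, and a gene is called where the Benjamini-Hochberg adjusted p is under 0.05. Of the 82 members 81 were tested. Rpl10l, a paralogue of Rpl10 active in the testis, lay at or under 0.0169 RPKM in every library and was not tested.

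Between the medullary gates of WT mice, most ribosomal protein genes were lower in mTEChi. The test called 58 of 81 members lower and 1 higher in WT mTEChi against WT mTEClo, where 31.1% of all tested genes were lower and 41.6% higher. The median log2 difference of the members was -0.45, against 0.12 for all tested genes. All 3 WT mTEChi libraries lay below all 3 of WT mTEClo for 60 members (34.4% of all tested genes) and above them for 3 members (44.1% of all). Small and large subunits had like counts, 23 of 30 lower with a median of -0.46 and 33 of 43 lower with a median of -0.48. Of the 12 members with little shared sequence 11 were lower. The family's direction held under each scaling tried except when libraries were centred on the family itself, where the median was at most 0.03. Leaving out 1 library at a time gave 44 to 60 members lower, and 43 of the 59 called members were called in each of these fits.

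Rpl15, a large subunit protein, had the greatest fall. It stood at 11.1, 7.77 and 7.89 RPKM in WT mTEChi, against 19.5, 17.9 and 19.4 RPKM in WT mTEClo, a log2 difference of -1.09 ± 0.197 (SE, adjusted p = 1.16e-04). WT mTEChi replicate 1 was the highest of its group and still below all of WT mTEClo. Of the windows of Rpl15, 28.3% were shared with 11 other genes. Rpl22, the T-cell development gene, shared no window with another transcript and had 78.8, 66.2 and 60.3 RPKM in WT mTEChi, against 118.0, 118.1 and 121.7 RPKM in WT mTEClo (-0.81 ± 0.132, adjusted p = 4.40e-05). Rps21, a small subunit protein that also shared no window, had 414.8, 384.8 and 292.5 RPKM in WT mTEChi, against 586.6, 637.9 and 642.4 RPKM in WT mTEClo (-0.79 ± 0.154, adjusted p = 2.49e-04). Neither gene's libraries overlapped between the gates. Rps27 (-0.83 ± 0.224, adjusted p = 0.00339) and Rpl30 (-0.76 ± 0.131, adjusted p = 7.78e-05) fell by similar amounts, but 98.4% of the windows of Rps27 and 19.4% of those of Rpl30 were shared.

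Among members with further roles, Rpl5 fell by 0.47 on the log2 scale (adjusted p = 0.0178), Rps19 by 0.37 (adjusted p = 0.0089) and Rpl38, which in mice is needed for translation of Hox mRNAs, by 0.41 (adjusted p = 0.00996). The calls for Rpl38 (adjusted p = 0.0717) and Rps19 (adjusted p = 0.0593) were lost without WT mTEChi replicate 3, and that for Rpl5 without WT mTEChi replicate 2 or 3 or WT mTEClo replicate 3 (adjusted p up to 0.0769). Members with and without a pyrimidine run at the start had like medians, -0.47 over 23 genes (range -1.09 to -0.02) and -0.51 over 31 genes (range -0.81 to 0.27). Markers of other cells moved with the same comparison: all 6 dendritic and macrophage markers were called higher, with a summed level of 327 to 357 RPKM in WT mTEChi, against 24.2 to 31.0 RPKM in WT mTEClo. Lyz2 made up most of it, while Xcr1 averaged 1.12 RPKM in WT mTEChi and 0.114 in WT mTEClo. B-cell markers (3 of 4 higher, 20.5 to 23.5 RPKM in WT mTEChi and 9.55 to 17.7 RPKM in WT mTEClo) did the same, as did 1 of 7 thymocyte markers (29.5 to 51.3 and 17.1 to 32.6 RPKM). Of 4 fibroblast markers 3 were higher and 1 lower (25.2 to 28.6 RPKM in WT mTEChi and 3.95 to 4.29 RPKM in WT mTEClo), and both tested erythroid markers were higher (6.26 to 8.15 and 0.617 to 0.995 RPKM). Of 4 endothelial markers 1 was lower (8.11 to 11.97 and 14.7 to 19.5 RPKM). The part of these lists in the differences was not tested.

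The comparison of WT mTEChi with WT cTEC, which shares the WT mTEChi libraries with the one above, called 38 members lower and 6 higher (31.8% and 46.6% of all tested genes), with a median of -0.27 against 0.25 for all genes. WT mTEChi libraries lay below all of WT cTEC for 42 members (32.8% of all tested genes) and above them for 6 (47.4% of all). Rpl15 had 26.8, 28.9 and 25.4 RPKM in WT cTEC, and WT mTEChi stood lower by a log2 difference of -1.60 ± 0.197 (adjusted p = 1.49e-06). For Rpl22, WT cTEC had 147.7, 143.2 and 131.1 RPKM and the difference was -1.04 ± 0.132 (adjusted p = 2.15e-06). Rpl9 (-0.79), Rpl13 (-0.71) and Rps27 (-0.71) followed. The 6 higher members were Rps29 (0.75, adjusted p = 0.00668), Rpl34, Rpl27, Rpl29 (each 0.30 to 0.32), Rpl36al (0.25) and the muscle paralogue Rpl3l (1.13), which stayed at or under 0.41 RPKM in every library. Leaving out 1 library at a time gave 28 to 42 members lower and 3 to 6 higher, with 3 higher when WT mTEChi replicate 1 or 2 was absent. Rps29 and Rpl3l kept their call in each of these fits, and Rpl34, Rpl27, Rpl29 and Rpl36al each lost it in at least 2. Of the little-shared members, 8 of 12 were lower. Of the dendritic and macrophage markers 5 of 6 were higher, with sums of 327 to 357 RPKM in WT mTEChi and 21.4 to 58.4 RPKM in WT cTEC, and all 4 B-cell markers were higher (20.5 to 23.5 and 2.33 to 4.75 RPKM). Of 4 endothelial markers 3 were higher and 1 lower (8.11 to 11.97 and 1.71 to 4.51 RPKM), and of 4 fibroblast markers 2 were higher and 2 lower (25.2 to 28.6 and 10.4 to 14.9 RPKM). Both tested erythroid markers were higher (6.26 to 8.15 and 0.398 to 0.581 RPKM), as was 1 of 7 thymocyte markers (29.5 to 51.3 and 28.2 to 60.3 RPKM). What part these lists had was not tested.

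Between WT mTEClo and WT cTEC the test called 11 members higher and 2 lower in WT mTEClo (24.6% and 18.2% of all tested genes), and the member median was 0.15, against 0.04 for all genes. All WT mTEClo libraries lay above all WT cTEC libraries for 31 members (29.3% of all tested genes) and below them for 7 (23.2% of all). Rpl29 had 11.9, 13.9 and 13.5 RPKM in WT mTEClo, against 9.02, 7.77 and 9.47 RPKM in WT cTEC (0.58 ± 0.123, adjusted p = 0.00123). Rpl36al, a paralogue of Rpl36a, had 64.5, 75.9 and 65.4 RPKM in WT mTEClo, against 50.8, 53.0 and 48.0 RPKM in WT cTEC (0.44 ± 0.0985, adjusted p = 0.00194). Of the little-shared members, 1 of 12 was higher and 0 lower. Rpl29, Rpl36al and Rps19bp1 kept their call in every fit without 1 library, and the other 10 did not. Without 1 library 5 to 9 members were higher and 0 or 1 lower. Same-numbered libraries of these groups deviated together, and with the replicate number as a block 11 members were higher and 1 lower, Rpl15 being lost (adjusted p = 0.0613). Cd79b, a B-cell marker, averaged 12.6 ± 4.54 RPKM in WT mTEClo and 2.79 ± 1.43 RPKM in WT cTEC. Of 4 endothelial markers 3 were higher (14.7 to 19.5 RPKM in WT mTEClo and 1.71 to 4.51 RPKM in WT cTEC), and 4 of 7 thymocyte markers were lower (17.1 to 32.6 and 28.2 to 60.3 RPKM). Of 6 dendritic and macrophage markers 2 were lower (24.2 to 31.0 and 21.4 to 58.4 RPKM), and of 4 fibroblast markers 1 was higher and 2 lower (3.95 to 4.29 and 10.4 to 14.9 RPKM). The part of these markers was not tested.

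**Figure D3:**
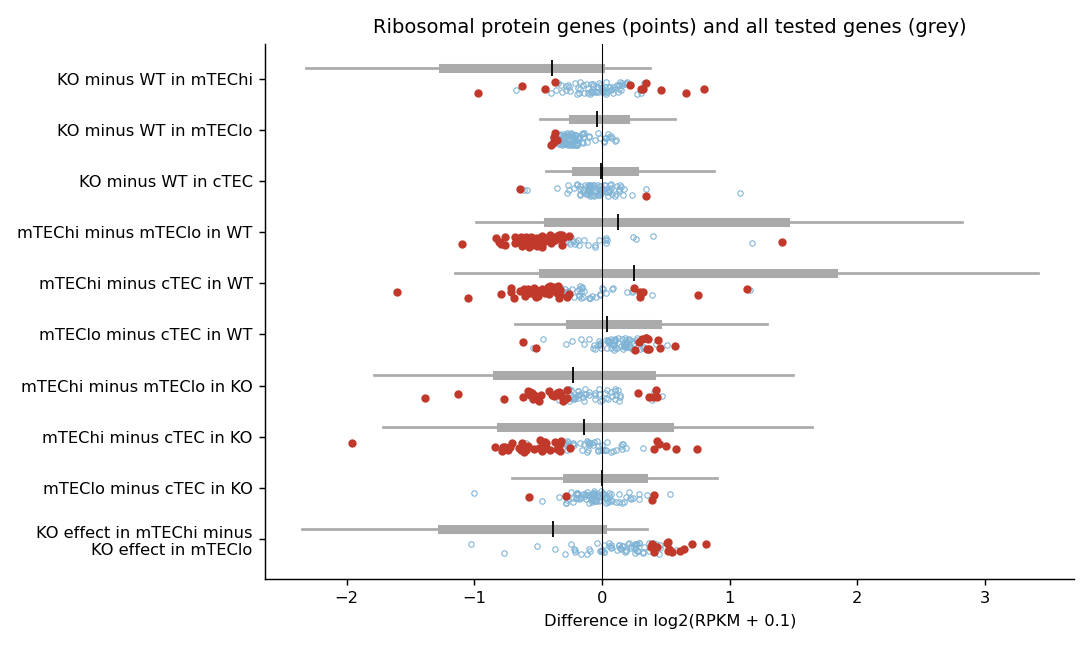
Log2 differences of the tested members in the comparisons between groups, 1 point per gene, filled red where called and an open blue circle otherwise. Grey lines above each row of points span the 10th to 90th percentiles of all tested genes, thick from the 25th to the 75th, with a tick at the median. In WT mTEChi against WT mTEClo the members' median is -0.45 and that of all genes 0.12, and in KO against WT mTEChi they are -0.01 and -0.39.

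Between the medullary gates of KO mice, fewer members were called. KO mTEChi against KO mTEClo had 23 members lower and 5 higher (43.7% and 23.4% of all tested genes), with a median of -0.19 against -0.22 for all genes. All KO mTEChi libraries lay below all KO mTEClo libraries for 28 members (47.8% of all tested genes) and above them for 5 (26.7% of all). Rpl15 had 5.97, 6.03 and 5.05 RPKM in KO mTEChi, against 16.1, 16.0 and 13.0 RPKM in KO mTEClo (-1.38 ± 0.197, adjusted p = 1.08e-05). Rpl30 fell by 1.13 on the log2 scale, with 7.22, 7.55 and 8.24 RPKM in KO mTEChi, against 17.1, 17.4 and 16.1 RPKM in KO mTEClo. Neither gene's libraries overlapped. The 5 higher members were Rps24 (0.43), Rpl27 (0.43), Rps12 (0.40), Rps26, which sits at the mRNA exit of the small subunit (0.37), and Rpl10 (0.28). The calls for Rps26 and Rpl10 were lost without KO mTEChi replicate 2, and that for Rps26 also without KO mTEChi replicate 1 or KO mTEClo replicate 2 or 3. The count of lower members depended on single libraries: it was 11 without KO mTEChi replicate 3 and 15 without KO mTEClo replicate 1. With libraries centred on the median of the housekeeping genes the direction turned, with 64 members higher and 2 lower. The all-gene median was then 0.54, near the members' 0.57. Centred on the median deviation of the housekeeping genes the direction did not turn, with 10 members higher, 16 lower and a median of -0.06. Of the little-shared members, 2 of 12 were lower. Of the 6 dendritic and macrophage markers 3 were higher, with sums of 334 to 365 RPKM in KO mTEChi and 65.1 to 133 RPKM in KO mTEClo. Of 4 endothelial markers 3 were lower (6.18 to 8.29 and 19.4 to 26.9 RPKM), and of 4 fibroblast markers 1 was higher and 3 lower (7.98 to 8.19 and 4.87 to 6.43 RPKM). Of 4 B-cell markers 2 were higher while the sum was lower (22.2 to 23.9 and 28.6 to 32.1 RPKM). Of 7 thymocyte markers 1 was higher and 1 lower (11.9 to 22.9 and 20.5 to 30.5 RPKM), and 1 of 2 tested erythroid markers was higher (5.84 to 6.26 and 0.453 to 2.83 RPKM). Any part of these lists in the members' values was not tested.

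The KO and the WT differences between the gates use separate libraries. Of the members called lower, 21 were called in both, which is 91.3% of the 23 in KO and 36.2% of the 58 in WT. Across the 81 genes the log2 differences had a Pearson correlation of 0.61 and a Spearman correlation of 0.61, as a description over genes that share their libraries. Log2 differences were below 0 in both genotypes for 56 members. No member was called higher in both.

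**Figure D4:**
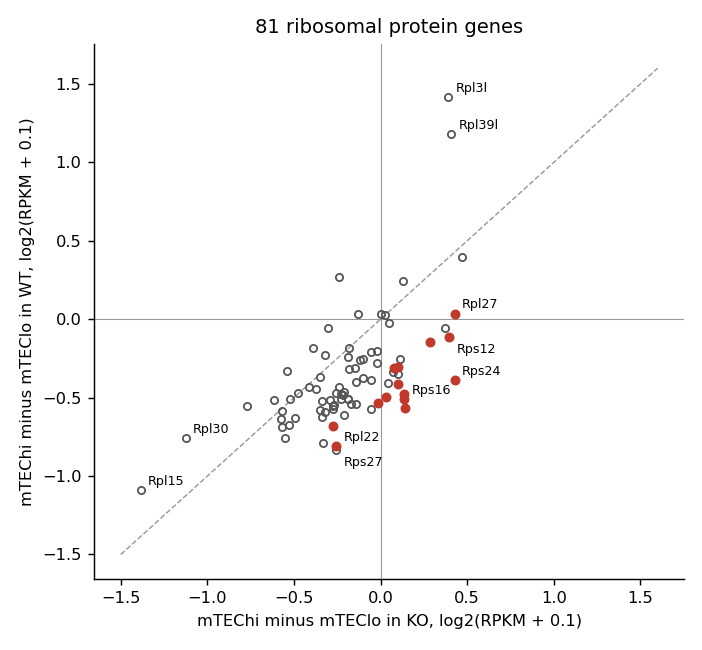
Log2 difference of mTEChi minus mTEClo in KO mice against that in WT mice for the 81 tested members, filled where the interaction is called, with a dashed line of equal difference and labels on some genes. Rpl15 and Rpl30 lie low on both axes, and Rps24 is at 0.43 in KO and -0.39 in WT.

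Against KO cTEC, KO mTEChi had 30 members lower and 6 higher (41.2% and 26.6% of all tested genes), with a median of -0.22 against -0.14 for all genes. The groups did not overlap for 19 members that were lower (41% of all tested genes) and 7 that were higher (27.1% of all). Rpl15 again differed most, with 14.6, 27.4 and 27.7 RPKM in KO cTEC (-1.96 ± 0.197, adjusted p = 2.11e-07), and KO cTEC replicate 1 was the lowest of its group. Rpl9 (-0.84), Rps6 (-0.78), Rpl13 (-0.78) and Rps3, which lines the mRNA entry of the small subunit (-0.76), were the next. Rpl27 (0.58), Rps26 (0.50), Rpl34 (0.45), Rps12 (0.43), Rps24 (0.41) and Rpl3l (0.75) were higher. Calls for 28 of these 36 members held in every fit without 1 library, that for Rpl3l did not, and 7 of the 12 little-shared members were lower. Of 6 dendritic and macrophage markers 3 were higher and 3 lower, with sums of 334 to 365 RPKM in KO mTEChi and 100 to 147 RPKM in KO cTEC. Of 4 B-cell markers 2 were higher (22.2 to 23.9 and 10.2 to 24.9 RPKM), and 1 of 2 tested erythroid markers was higher (5.84 to 6.26 and 0.467 to 1.71 RPKM). Of 4 fibroblast markers 1 was higher and 3 lower (7.98 to 8.19 and 5.89 to 9.71 RPKM), and of 4 endothelial markers 1 was higher and 1 lower (6.18 to 8.29 and 5.60 to 12.8 RPKM). Of 7 thymocyte markers 1 was lower (11.9 to 22.9 and 22.0 to 38.7 RPKM). Their part was not tested here either. KO mTEClo against KO cTEC called 2 members higher, Rpl30 (0.41) and Rpl34 (0.40), and 2 lower, Rpl15 (-0.57) and Rpl21 (-0.28). Of all tested genes, 19.3% were higher and 17.5% lower in this comparison. KO mTEClo libraries lay above all KO cTEC libraries for 6 members (22% of all tested genes) and below them for 0 (18.7% of all). None of these 4 calls held in every fit without 1 library, and without KO cTEC replicate 1 the number of lower members was 19. With libraries centred on the median of the housekeeping genes, 69 members were lower, and the all-gene median was -0.56. Centred on the median deviation of the housekeeping genes, 18 were lower and 0 higher, with an all-gene median of -0.11. None of the 12 little-shared members was called. Of 4 endothelial markers 3 were higher (19.4 to 26.9 RPKM in KO mTEClo and 5.60 to 12.8 RPKM in KO cTEC), and 1 of 6 dendritic and macrophage markers was lower (65.1 to 133 and 100 to 147 RPKM). Of 4 B-cell markers 1 was higher and 1 lower (28.6 to 32.1 and 10.2 to 24.9 RPKM), and of 4 fibroblast markers 1 was higher and 1 lower (4.87 to 6.43 and 5.89 to 9.71 RPKM). How these lists bear on the members was not tested.

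Between genotypes within mTEChi, the ribosomal protein genes had a median difference near 0, while more than 50% of all tested genes were lower. The test called 7 of 81 members higher and 4 lower in KO mTEChi, where 9.57% of all tested genes were higher and 52.8% lower. The median log2 difference was -0.01 for the members and -0.39 for all tested genes. All 3 KO libraries lay above all 3 WT libraries for 5 members (14.1% of all tested genes) and below them for 8 members (60.1% of all). With quantile normalization, which removed most of that shift (all-gene median 0.08), 15 members were higher and 16 lower. The counts rested on the scaling. With libraries centred on the median of the housekeeping genes 62 members were higher and 0 lower (members' median 0.53, all-gene median 0.14). Centred on the median deviation of the housekeeping genes, 13 were higher and 4 lower (members' median 0.06, all-gene median -0.33). The plain median rests on the gene that ranks in the middle. By group means this was Gusb in KO mTEChi and Ywhaz in WT mTEChi, so that setting cannot decide the family's direction. Of the 12 little-shared members 1 was higher and 0 lower. Among markers of other cells, 5 of 6 dendritic and macrophage markers, 3 of 7 thymocyte markers and 4 of 4 fibroblast markers were called lower in KO mTEChi. The summed levels were 334 to 365 RPKM in KO and 327 to 357 RPKM in WT for the first list, 11.9 to 22.9 and 29.5 to 51.3 RPKM for the second, and 7.98 to 8.19 and 25.2 to 28.6 RPKM for the third. Lyz2, which made up most of the first sum, was not among the 5. Of 4 B-cell markers 2 were lower (22.2 to 23.9 RPKM in KO and 20.5 to 23.5 RPKM in WT), as were 2 of 4 endothelial markers (6.18 to 8.29 and 8.11 to 11.97 RPKM) and 1 of 2 tested erythroid markers (5.84 to 6.26 and 6.26 to 8.15 RPKM). The epithelial lists differed too: the mTEClo markers summed to 162 to 187 RPKM in KO mTEChi and 470 to 615 RPKM in WT mTEChi. The mTEChi markers, which include Aire, summed to 1586 to 1714 RPKM in KO and 1186 to 1210 RPKM in WT. The cTEC markers summed to 843 to 986 RPKM in KO and 552 to 663 RPKM in WT. The part of all these lists in the result was not tested.

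Rps24, a small subunit protein, had the greatest rise in KO mTEChi. It stood at 376.4, 426.1 and 319.2 RPKM in KO mTEChi, against 231.5, 215.9 and 193.5 RPKM in WT mTEChi. Every KO library exceeded every WT library, and the log2 difference was 0.80 ± 0.108 (adjusted p = 8.98e-06). The call held without each library in turn and under every other setting tried. Outside mTEChi its levels were 291.2, 280.5 and 256.8 RPKM in KO mTEClo and 264.6, 298.7 and 275.7 in WT mTEClo, and 259.2, 290.5 and 290.0 RPKM in KO cTEC and 224.8, 253.8 and 234.3 in WT cTEC. Of its windows 10.7% were shared with 5 other genes.

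Rps27 had 10.9, 9.79 and 9.95 RPKM in KO mTEChi, against 6.97, 5.36 and 7.11 RPKM in WT mTEChi (0.66 ± 0.224, adjusted p = 0.0182). Rpl39, a short protein of the exit tunnel, had 311.2, 352.5 and 280.2 RPKM in KO mTEChi, against 266.5, 261.1 and 168.1 RPKM in WT mTEChi (0.46 ± 0.167, adjusted p = 0.0241). The WT value of replicate 3 was low beside the other 2, and without it the call was lost. Rps16 (0.32, adjusted p = 0.0237), Rpl38 (0.31, adjusted p = 0.0472) and Rpl10 (0.22, adjusted p = 0.0445) were also higher. Each of these 5 calls was lost without at least 1 library: Rps27 without KO replicate 1 or WT replicate 2, and Rpl39, Rps16, Rpl38 and Rpl10 without KO replicate 1, KO replicate 2 or WT replicate 3. Rps16 and Rpl10 were lost without WT replicate 2 as well. The number of higher members was 2 without KO replicate 1 or 2, 4 without WT replicate 2 and 3 without WT replicate 3.

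Among the members called lower in KO mTEChi, Rpl15 had 5.97, 6.03 and 5.05 RPKM, against 11.1, 7.77 and 7.89 RPKM in WT mTEChi (-0.63 ± 0.197, adjusted p = 0.0112), and the call was lost without WT replicate 1 (adjusted p = 0.0703). Rpl7l1, a paralogue of Rpl7 linked to assembly of the large subunit, had 11.9, 13.8 and 11.3 RPKM in KO mTEChi, against 17.9, 16.5 and 15.9 RPKM in WT mTEChi (-0.45 ± 0.108, adjusted p = 0.00192). Rps19bp1, which encodes a partner of Rps19, had 8.23, 9.97 and 10.9 RPKM in KO mTEChi, against 12.9, 12.4 and 12.3 RPKM in WT mTEChi (-0.37 ± 0.0897, adjusted p = 0.00194). KO and WT did not overlap for these 3 genes. The fourth, Rpl3l, lay at 0.41 RPKM or below. Rpl7l1 and Rps19bp1 kept their call without each library in turn. Both turned to values above 0 when libraries were centred on the median of the housekeeping genes. Neither sign turned when libraries were centred on the median deviation of the housekeeping genes. The number of lower members was 10 without KO replicate 2 and 8 without WT replicate 3.

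**Figure D5:**
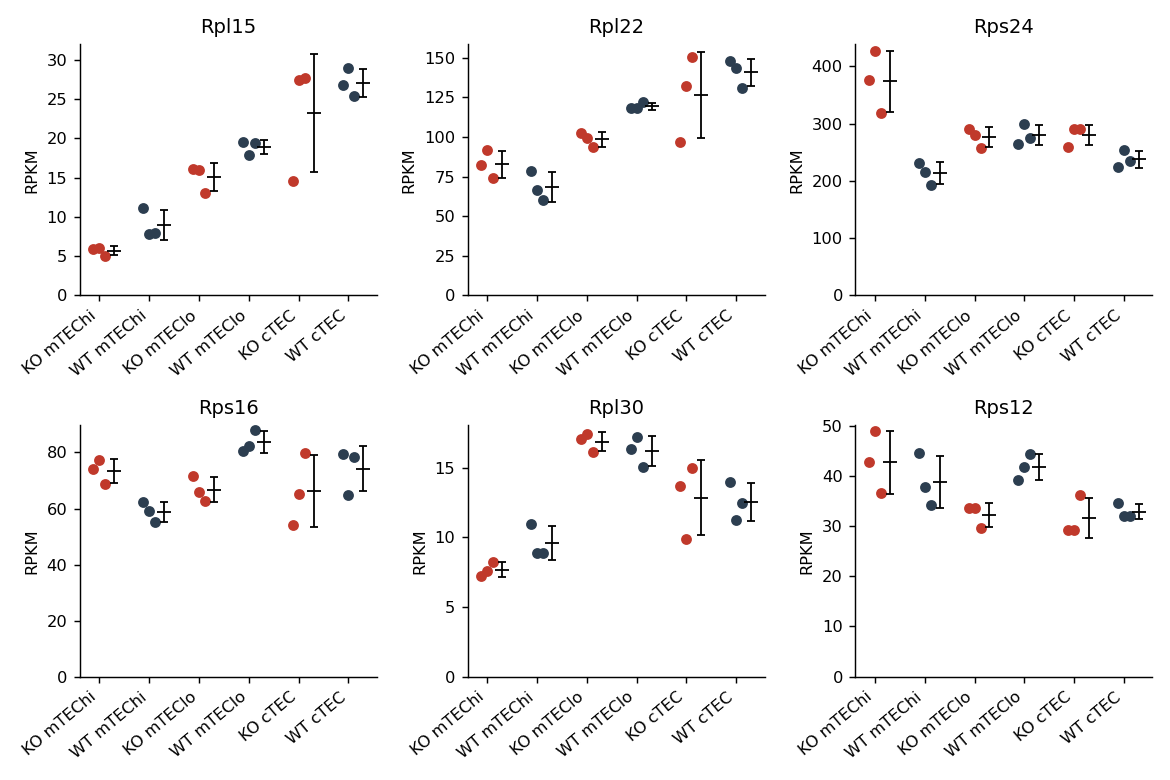
RPKM of 6 members in each of the 18 libraries (points), with the mean and SD of each group of 3 (bars). Rps24 is at 319.2 to 426.1 RPKM in KO mTEChi and at 193.5 to 231.5 RPKM in WT mTEChi, and Rpl15 is lowest in KO mTEChi at 5.05 to 6.03 RPKM.

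In mTEClo, KO libraries tended to lie below WT libraries by small amounts. For 52 members all 3 KO mTEClo libraries lay below all 3 WT mTEClo libraries (22.6% of all tested genes) and for 0 above (17.2% of all). The test called 5 members lower and 0 higher, where 8.04% of all tested genes were lower and 7.93% higher, and the median was -0.23 for the members against -0.04 for all genes. Among the 5 were Rpl12, at the base of the stalk (29.8, 28.3 and 23.4 RPKM in KO, 32.4, 36.7 and 38.2 RPKM in WT; -0.40 ± 0.126, adjusted p = 0.0423), Rps19 (-0.38, adjusted p = 0.036), Rps12 (-0.37, adjusted p = 0.038) and Rps7 (-0.35, adjusted p = 0.046). Whichever of the 6 libraries was left out, 0 or 1 member was called, with libraries centred on the median deviation of the conventional members 0 were, and centred on their median 2 were higher and 0 lower. With a fit on these 2 groups alone 24 members were lower, and with libraries centred on the median deviation of the housekeeping genes 52 were. None of the 12 little-shared members was called, and all 12 had a log2 difference below 0. Beside this, Lyz2 was higher in KO mTEClo (88.0 ± 37.0 RPKM against 25.9 ± 2.99 RPKM in WT mTEClo), and so were Cd79b (30.6 ± 2.13 RPKM against 12.6 ± 4.54 RPKM), the endothelial marker Tek (16.2 ± 0.812 RPKM against 6.19 ± 2.31 RPKM) and the fibroblast marker Pdgfrb (2.51 ± 0.319 RPKM against 1.03 ± 0.177 RPKM). Other defining markers, such as Xcr1 among dendritic cells and Ms4a1 among B cells, averaged at most 0.12 RPKM in both groups, and the part of these markers was not tested.

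In cTEC the genotypes differed for 2 members, Rps27l, a paralogue of Rps27 that p53 induces (116.3, 125.8 and 115.5 RPKM in KO, 91.9, 106.0 and 84.4 RPKM in WT; 0.35 ± 0.106, adjusted p = 0.0305), and Rpl23a (1.21, 2.02 and 2.42 RPKM in KO, 2.40, 3.51 and 2.83 RPKM in WT; -0.64 ± 0.213, adjusted p = 0.0447). Rpl23a libraries overlapped between genotypes and those of Rps27l did not. Of all tested genes, 13.3% were higher and 6.76% lower, and the member median was -0.06 against -0.01 for all genes. All KO cTEC libraries lay above all WT cTEC libraries for 3 members (15.2% of all tested genes) and below them for 0 (11% of all). Both calls were lost without KO replicate 1 or WT replicate 3, and also without KO replicate 2 or WT replicate 1 for Rps27l and without WT replicate 2 for Rpl23a. Beside them, 4 of 7 mTEChi markers were higher in KO cTEC, with sums of 89.9 to 224 RPKM against 58.9 to 73.9 RPKM in WT cTEC, and 0 of 8 cTEC markers were called. The dendritic and macrophage markers summed to 100 to 147 RPKM in KO cTEC and 21.4 to 58.4 RPKM in WT cTEC, and Lyz2 was the 1 of 6 called higher (119 ± 24.0 RPKM in KO cTEC and 38.0 ± 17.7 RPKM in WT cTEC). Also higher were Cd79b (14.9 ± 7.58 and 2.79 ± 1.43 RPKM), Tek (6.73 ± 3.19 and 0.961 ± 0.721 RPKM) and Pdgfrb (2.18 ± 0.878 and 1.09 ± 0.349 RPKM). Of the fibroblast markers, Col1a1 (0.755 ± 0.442 RPKM in KO cTEC and 2.52 ± 0.788 RPKM in WT cTEC) and Col1a2 (4.04 ± 2.29 and 7.85 ± 1.73 RPKM) were lower. The part of these markers was not tested. None of the 12 little-shared members was called.

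The difference between the genotype effects in mTEChi and in mTEClo was tested by an interaction. It was above 0 for 14 members and below 0 for 0 (6.01% and 40.9% of all tested genes), with a median of 0.23 for the members and -0.39 for all genes. Rps24 had the greatest interaction (0.82 ± 0.153, adjusted p = 3.83e-04), and that of Rps16 was smaller (0.65 ± 0.163, adjusted p = 0.00391). Rps16 had 74.3, 77.2 and 68.7 RPKM in KO mTEChi and 62.2, 59.0 and 55.1 RPKM in WT mTEChi, but 71.6, 65.9 and 62.6 RPKM in KO mTEClo and 80.6, 82.2 and 88.0 RPKM in WT mTEClo. KO thus stood above WT in the hi gate and below it in the lo gate, with no overlap in either. Small and large subunits gave 7 members each, and of the 12 little-shared members 4 were above 0 and 0 below. With libraries centred on the median of the housekeeping genes 71 members were above 0, and on their median deviation 44 were. Centred on the median of the conventional members, 1 was above and 31 below. With 1 library left out, 5 to 21 members passed. It was 8 without KO mTEChi replicate 1, 5 without KO mTEChi replicate 2, 6 without WT mTEChi replicate 3, 9, 9 and 6 without KO mTEClo replicates 1, 2 and 3, and 7 without WT mTEClo replicate 2 or 3. Rpl10, Rps16, Rps24 and Rps7 were among those that passed in each of these fits. All 6 dendritic and macrophage markers and all 4 fibroblast markers were called below 0 in the interaction, as were 1 of 7 thymocyte, 1 of 4 B-cell and 1 of 2 tested erythroid markers, and their part was not tested.

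Members were also compared relative to the family, after each library was centred on the median deviation of its conventional members. In KO against WT mTEChi 11 members were then higher and 13 lower (6.57% and 50.6% of all tested genes), with Rps24 at 0.76 (adjusted p = 1.72e-06), Rps27 at 0.62, Rpl39 at 0.43 and Rpl15 at -0.66 (adjusted p = 6.30e-04). In WT mTEChi against WT mTEClo 18 were higher and 9 lower (57.3% and 12.5% of all). There Rpl15 (-0.64), Rpl22 (-0.36) and Rps21 (-0.34) fell further than the family, and Rpl23a (0.85), Rps29 (0.69) and Rpl27 (0.48) stood above it. In KO mTEChi against KO mTEClo 16 were higher and 15 lower (25.7% and 33.9% of all). For KO against WT in mTEClo it was 0 higher and 0 lower (14.4% and 2.11% of all), and in cTEC 2 higher and 0 lower (10.4% and 2.9% of all). For mTEChi against cTEC it was 20 higher and 21 lower in KO (30.9% and 30.3% of all), and 21 higher and 14 lower in WT (54.3% and 18.6% of all). For mTEClo against cTEC it was 6 higher and 2 lower in KO (17% and 11.1% of all), and 7 higher and 7 lower in WT (16.4% and 21.3% of all). In the interaction 5 members were above 0 and 11 below (1.68% and 54.5% of all). Over the 6 group means, Rpl15, Rpl30, Rpl23a, Rps29 and Rps6 varied most relative to the family. In that order they averaged 16.5, 12.6, 2.24, 3.30 and 5.86 RPKM over the 18 libraries. Their shared windows were 28.3%, 19.4%, 80.0%, 24.7% and 83.6%, so their variation is uncertain. Rps10, Rps15, Rpl24 and Rpl32 were among the least variable.

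Of the 9 members that are not conventional ribosomal proteins 8 were tested, and no test compared them with the family. In WT mTEChi against WT mTEClo 6 of the 8 had a log2 difference below 0. Rps19bp1 (-0.55) and Rpl7l1 (-0.33) were called lower there, and Rpl3l was called higher (1.41). Rpl22l1, the paralogue of Rpl22, had 59.8, 68.4 and 59.8 RPKM in KO mTEChi and 71.6, 58.7 and 50.1 RPKM in WT mTEChi, and 78.0, 69.3 and 66.7 RPKM in KO mTEClo and 72.9, 65.8 and 72.1 RPKM in WT mTEClo. Both genotypes had lower levels in mTEChi than in cTEC (-0.46, adjusted p = 0.00733 in KO and -0.40, adjusted p = 0.0146 in WT), and between the gates it was not called. Rps4y2, which the GENCODE annotation gives as a transcribed processed pseudogene, had 45.2 to 76.1 RPKM over all libraries. Rpl39l, a paralogue active in the testis, stayed at or under 0.725 RPKM. Rps27l lay between 84.4 and 125.8 RPKM, above the median of 71.4 RPKM over the conventional members.

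Lists of other genes that serve the ribosome were counted in the same way, and no test compared them with the members. In KO against WT mTEChi, 23 of 26 ribosome biogenesis genes were called lower and 0 higher (median -0.50), and 10 of 15 genes of RNA polymerase I and its factors were lower and 0 higher (median -0.35), beside 52.8% of all tested genes lower and 9.57% higher. Tsr1, which acts in maturation of the small subunit, averaged 6.43 ± 0.128 RPKM in KO mTEChi and 10.8 ± 0.409 RPKM in WT mTEChi (-0.73). In the mitochondrial ribosome 30 of 76 genes were lower and 4 higher, and Mrpl13 was among the higher ones (122 ± 16.5 RPKM in KO mTEChi, 55.3 ± 4.78 in WT mTEChi). Of 15 other mRNAs with a TOP motif 3 were higher and 4 lower, with a median of 0.04: Eif4b rose by 0.58 and Eef1g fell by 0.63 on the log2 scale. In the interaction of genotype and gate, 4 of these 15 were above 0 and 0 below, where 6.01% and 40.9% of all tested genes were. Of the 7 ribosomal proteins with other symbols 2 were higher and 1 lower in KO mTEChi, with a median of -0.04, and Rplp2, a stalk protein, averaged 528 ± 70.4 RPKM in KO mTEChi and 381 ± 61.0 RPKM in WT mTEChi (0.47 ± 0.135, adjusted p = 0.0062).

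In WT mTEChi against WT mTEClo, 11 of 26 ribosome biogenesis genes (median -0.15), 8 of 15 genes of RNA polymerase I (median -0.28), 31 of 76 of the mitochondrial ribosome (median -0.20) and 9 of 15 other TOP mRNAs (median -0.28) were called lower, beside 31.1% of all tested genes. Ubtf, a transcription factor of ribosomal RNA genes, averaged 20.3 ± 0.53 RPKM in WT mTEChi and 33.2 ± 0.366 RPKM in WT mTEClo. In KO mTEChi against KO mTEClo the counts were 23 of 26, 12 of 15, 49 of 76 and 4 of 15, beside 43.7% of all tested genes. Ubtf averaged 17.8 ± 0.333 RPKM in KO mTEChi and 36.4 ± 0.482 RPKM in KO mTEClo.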

How the data were processed

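Per the labels' protocols, RNA of flow-sorted thymic epithelial cells was sequenced. For each of 18 libraries the authors deposited RPKM and, as a signal, aligned bases per gene. The submitters' processing notes name CASAVA 1.8.2 and the build mm10, but no annotation. Whole reads could not be recovered, so count tests were not run. Depth was 4.54 to 18.1 Gb a library.

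RPKM of the 19451 genes that reached 0.1 RPKM in 3 or more libraries were modelled as log2(RPKM + 0.1) with limma 3.58.1 in R 4.3.3 (6 group means over all libraries, eBayes with trend), with Benjamini-Hochberg adjustment over all tested genes in each of 10 comparisons. A fold change on this scale understates changes of low genes. The fit was tested on simulated data. Values with ± are mean and SD, or log2 difference and SE. Alternatives were another pseudocount, no filter, other scalings, fits on the compared groups, a replicate block and leaving out each library. Shared sequence was counted as exact 100-base windows of a member's GENCODE M21 transcript found in transcripts of other genes. Same-numbered WT mTEClo and WT cTEC libraries deviated together (correlations 0.107, 0.168 and 0.154). The main fit used no pairing, and the replicate block entered the replicate number as a block over all 18 libraries.

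Values of some genes are not reported here. The members and lists were chosen with earlier results of these data known. Named are, in each comparison, the 5 called members with the largest rise and fall, no overlap between groups and 1 RPKM or more on average in the group with more. Further named are the members that are not conventional, the 5 highest, lowest, most and least variable, those with known further roles, and up to 3 called genes of each other list.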

Additional observations from a re-analysis of the deposited data

Results flagged for a closer look

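The genotype difference in mTEChi and that in mTEClo were called different for 14 members, 12 of which are given here, by limma's interaction test with an adjusted p under 0.05. Among small subunit genes, the log2 value of the effect in mTEChi minus the effect in mTEClo was 0.82 for Rps24, 0.65 for Rps16, 0.53 for Rps10, 0.51 for Rps7, 0.51 for Rps12 and 0.41 for Rps20. Among large subunit genes it was 0.62 for Rpl39, 0.55 for Rpl22, 0.43 for Rpl10, 0.41 for Rpl37a, 0.39 for Rpl27 and 0.39 for Rpl19. Each of these values is above 0, against a median of -0.39 for all tested genes. The call held in every fit without 1 library for Rps24, Rps16, Rpl10 and Rps7 among these genes. No group had more than 3 libraries, so no rule was applied to flag single libraries far from the rest of their group. Libraries that stood apart, and fits without 1 library, are described with the comparisons above.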

How the results depend on the processing

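Members called were recounted under each alternative, and the values below are those that moved by over 1.5 times or turned in sign. The cause was not tested unless the alternative itself states it. A pseudocount of 1 RPKM in place of 0.1 moved 1 count, to 1 lower in the interaction, and the summed level of WT mTEClo over WT cTEC moved to 1.04 as a share of the RPKM total. Direction and call of the leading result, the members lower in WT mTEChi against WT mTEClo, held under each setting except centring on the family, which removes the shared difference by construction.

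Without 1 library at a time, the members called were 2 to 9 higher and 3 to 10 lower in KO against WT mTEChi, 0 higher and 0 to 1 lower in KO against WT mTEClo, 0 to 2 higher and 0 to 4 lower in KO against WT cTEC and 1 higher and 44 to 60 lower in WT mTEChi against WT mTEClo. The ranges were 3 to 6 higher and 28 to 42 lower in WT mTEChi against WT cTEC, 5 to 9 higher and 0 to 1 lower in WT mTEClo against WT cTEC and 3 to 5 higher and 11 to 32 lower in KO mTEChi against KO mTEClo. They were 5 to 9 higher and 23 to 40 lower in KO mTEChi against KO cTEC, 0 to 3 higher and 0 to 19 lower in KO mTEClo against KO cTEC and 5 to 21 higher and 0 to 1 lower in the interaction.

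Quantile normalization gave 15 higher and 16 lower in KO against WT mTEChi, 9 lower in KO against WT mTEClo, 2 higher in KO against WT cTEC and 0 higher in WT mTEChi against WT mTEClo. Under the same setting it gave 7 higher and 4 lower in WT mTEClo against WT cTEC, 11 higher in KO mTEChi against KO mTEClo, 11 higher in KO mTEChi against KO cTEC and 4 higher and 15 lower in KO mTEClo against KO cTEC. It further gave 22 higher and 2 lower in the interaction. In KO against WT mTEChi the sign turned for Rpl3l (0.64). The sign turned for Rpl3l (-0.24) and Rpl32 (0.0694) in WT mTEChi against WT mTEClo. Signs also turned for Rpl3l (-0.77) in WT mTEChi against WT cTEC. Testing all genes without a filter gave 1 lower in KO against WT mTEClo, 0 lower in KO against WT cTEC, 1 lower in WT mTEClo against WT cTEC and 0 lower in KO mTEClo against KO cTEC. A fit on the compared groups alone gave 8 lower in KO against WT mTEChi, 24 lower in KO against WT mTEClo, 0 higher and 0 lower in KO against WT cTEC and 3 higher in WT mTEChi against WT mTEClo. Under the same setting it gave 19 lower in KO mTEChi against KO cTEC, 0 higher and 0 lower in KO mTEClo against KO cTEC and 2 lower in the interaction. The replicate block gave 2 lower in KO against WT mTEClo, 0 lower in KO against WT cTEC and 1 lower in WT mTEClo against WT cTEC.

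Centring on the median of the conventional members gave 1 higher and 39 lower in KO against WT mTEChi, 2 higher and 0 lower in KO against WT mTEClo, 18 higher and 6 lower in WT mTEChi against WT mTEClo and 19 higher and 12 lower in WT mTEChi against WT cTEC. Under the same setting it gave 3 higher and 7 lower in WT mTEClo against WT cTEC, 37 lower in KO mTEChi against KO mTEClo, 11 higher in KO mTEChi against KO cTEC and 8 higher and 1 lower in KO mTEClo against KO cTEC. It further gave 1 higher and 31 lower in the interaction. In KO against WT mTEChi the sign turned for Rpl10 (-0.0137). The sign turned for Rpl38 (0.0686), Rps7 (0.0624), Rps24 (0.0854), Rpl3 (0.16), Rpl7l1 (0.15), Rpl5 (0.0029), Rpl32 (0.14) and Rps19 (0.10) in WT mTEChi against WT mTEClo. Signs also turned for Rpl3 (0.0253) and Rpl7l1 (0.0386) in WT mTEChi against WT cTEC. In the interaction the sign turned for Rpl27 (-0.12) and Rpl10 (-0.0798). Centring on their median deviation (added after seeing the data) gave 11 higher and 13 lower in KO against WT mTEChi, 0 lower in KO against WT mTEClo, 2 higher and 0 lower in KO against WT cTEC and 18 higher and 9 lower in WT mTEChi against WT mTEClo. Other counts were 21 higher and 14 lower in WT mTEChi against WT cTEC, 7 higher and 7 lower in WT mTEClo against WT cTEC, 16 higher and 15 lower in KO mTEChi against KO mTEClo and 20 higher in KO mTEChi against KO cTEC. The last counts were 6 higher in KO mTEClo against KO cTEC and 5 higher and 11 lower in the interaction. In WT mTEChi against WT mTEClo the sign turned for Rpl38 (0.0431), Rps7 (0.0369), Rps24 (0.0599), Rpl3 (0.13), Rpl7l1 (0.12), Rpl32 (0.11) and Rps19 (0.0787). The sign turned for Rpl3 (0.0403) and Rpl7l1 (0.0535) in WT mTEChi against WT cTEC.

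Centring on the median of the housekeeping genes gave 62 higher and 0 lower in KO against WT mTEChi, 53 lower in KO against WT mTEClo, 4 higher and 0 lower in KO against WT cTEC and 2 higher in WT mTEChi against WT cTEC. Under the same setting it gave 2 higher in WT mTEClo against WT cTEC, 64 higher and 2 lower in KO mTEChi against KO mTEClo, 12 higher and 15 lower in KO mTEChi against KO cTEC and 0 higher and 69 lower in KO mTEClo against KO cTEC. It further gave 71 higher in the interaction. In KO against WT mTEChi the sign turned for Rps19bp1 (0.17) and Rpl7l1 (0.0925). The sign turned for Rps2 (0.14), Rpl7l1 (0.22), Rpl12 (0.27), Rpl9 (0.19), Rps4y2 (0.37), Rps9 (0.44), Rps3 (0.19), Rpl13 (0.21), Rps27l (0.46) and Rpl14 (0.18) in KO mTEChi against KO mTEClo. Signs also turned for Rpl30 (-0.15) and Rpl34 (-0.16) in KO mTEClo against KO cTEC. Centring on their median deviation (added after seeing the data) gave 13 higher in KO against WT mTEChi, 52 lower in KO against WT mTEClo, 2 higher and 59 lower in WT mTEChi against WT cTEC and 10 higher in KO mTEChi against KO mTEClo. Other counts were 0 higher and 18 lower in KO mTEClo against KO cTEC and 44 higher in the interaction. Counting only the 12 little-shared members (added after seeing the data) gave 0 lower in KO against WT mTEChi, 0 lower in KO against WT mTEClo, 0 lower in KO against WT cTEC and 0 lower in WT mTEClo against WT cTEC. Under the same setting it gave 2 lower in KO mTEChi against KO mTEClo, 7 lower in KO mTEChi against KO cTEC and 0 lower in KO mTEClo against KO cTEC. These counts are out of 12 genes and the main ones out of 81, so a smaller count is not a smaller share. In KO mTEChi against KO cTEC, 7 of 12 were lower here and 30 of 81 in the main fit.

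The samples number 3 a group, and the labels do not say whether they are separate mice. The values are RPKM and not counts, so that counting error cannot be given, and the spread between libraries limits precision. Levels of members that share sequence with pseudogenes, and of members with truncated gene models, are uncertain. The RPKM scale is relative: a change in the other genes of a library moves each member. Replicate numbers entered only the fit with the replicate block, which covered all 18 libraries and so tied same-numbered KO and WT libraries too. In deviations from group means, each WT mTEClo library correlated most with its own number in WT cTEC. Each WT mTEChi library correlated most with its own number in WT mTEClo (0.0389, 0.133 and 0.0948). WT mTEChi libraries did so in WT cTEC as well (0.0525, 0.0602 and 0.0660), as did KO mTEChi libraries in KO cTEC (0.0320, 0.0451 and 0.0403). With the replicate number as a block, 1 member was higher and 59 were lower in WT mTEChi against WT mTEClo. The replicate block moved no count of calls by over 1.5 times other than those given here.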

Other observations

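Further lists around translation were counted in KO mTEChi against WT mTEChi, where 52.8% of all tested genes were lower and 9.57% higher. Of 7 elongation factors 3 were called lower and 0 higher, and of 27 tested initiation factors 12 were lower and 3 higher. Of 19 factors that act on ribosomal protein genes 8 were lower and 3 higher, and Mycn averaged 0.189 ± 0.0318 RPKM in KO mTEChi and 1.48 ± 0.0698 RPKM in WT mTEChi (SD, n = 3 each), with a log2 difference of -2.46. Of 13 housekeeping genes 5 were lower and 1 higher. Of the 4 endothelial markers 2 were lower, and of the 4 B-cell markers 2 were lower. Eif4b, an initiation factor, averaged 77.6 ± 2.86 RPKM in KO mTEChi and 51.9 ± 2.13 RPKM in WT mTEChi, while in mTEClo it averaged 60.4 RPKM in KO and 73.3 RPKM in WT.

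Of the 73 conventional members 28 hold 54 small nucleolar RNA genes within their bounds, and the family lies on 19 chromosomes. The pseudogene row Rpl34-ps1, left out by the rule, had a mean of 51.6 RPKM over the 18 libraries, and the other 4 rows with -ps had means of 1.94 RPKM or lower.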
